A study of Mus musculus with 20 samples.

Results

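CD4+ iNKT1 cells of BL6 spleen were compared with CD4+ iNKT1 cells of BL6 liver that had been prepared in the cold, called liver_C, across all genes measured. The comparison holds 6 of the 20 libraries of the series, 3 of spleen and 3 of liver_C, chosen by the organ, the preparation and the strain in their labels. The strain was C57/BL6N, and each library came from female mice, 8 to 12 weeks old, pooled by 4 to 6. Spleen and liver_C cells were both meshed in the cold without enzymes, so that neither group passed the collagenase digestion at 37 °C that a further set of liver libraries, liver_H, did pass. Livers were perfused and their cells spun through Percoll at 20 °C, steps not described for spleen, and organ and preparation therefore cannot be told apart. In both organs the cells were sorted as CD1d tetramer+ CD3+ CXCR3+ CD4+ cells without the B cell markers B220 and CD138. The presence of Cd3e, given below as a check, is therefore fixed by the gate and is no finding. Sdc1, which encodes CD138, was counted among the B and plasma cell markers. The question was which genes differed between the organs when digestion was left out.

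Invariant natural killer T (iNKT) cells are T cells with a nearly fixed T cell receptor that recognises lipids presented by CD1d. The iNKT1 subset carries the transcription factor T-bet, depends on interleukin-15, expresses many receptors of natural killer cells and releases interferon-γ within hours. In the liver these cells crawl along the sinusoids and stay in the organ for long periods, whereas the spleen holds cells in the red pulp and the marginal zone with access to the blood.

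The spleen libraries held 10638776 to 13431486 reads and the liver_C libraries 11134789 to 19893211, made from 120000 to 169000 and from 69300 to 209900 sorted cells. Values are normalized reads, that is, read counts divided by a size factor for each library. Spleen N1226 and liver_C N1224 carry library numbers of an earlier range than the other 4 libraries, and libraries of 1 group differed more across these ranges (chi-square per degree of freedom 37.2 to 64.1) than within them (12.8 and 16.2). What the library numbers mark is not stated in the sources used here. Of 17 markers of iNKT1 cells, all but Trav11, which was at 0 in each of the 6 libraries, had reads in every library. The 17 summed to 39718 to 44854 normalized reads in spleen and 55245 to 57077 in liver_C. Of the 16 tested, 2 were called, Il2rb and Ifng, both lower in spleen and described below. Cd3e averaged 6447 ± 297 normalized reads in spleen and 6882 ± 134 in liver_C and Trac 3927 ± 313 normalized reads in spleen and 4411 ± 67.0 in liver_C (SD, n = 3 each), and neither was called.

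The test covered the 12802 genes that reached 10 normalized reads in 3 or more of the 9 BL6 libraries from spleen or liver, liver_H included. Of these, 117 were higher in spleen and 209 were lower at an adjusted p under 0.05 from limma, which is 0.914% and 1.63% of the genes tested. Fold changes here are differences of log2(normalized reads + 1) between spleen and liver_C, which understate the change of genes with few reads. The higher genes mostly held few reads, with a median of 88.4 normalized reads over the 6 libraries, against 358 for the lower genes. At least 100 normalized reads on average were found for 56 of the higher and 168 of the lower genes. The spleen and liver_C values did not overlap for 117 of the 117 higher genes and 208 of the 209 lower genes, as for 19.3% of all genes tested. All 326 genes had the same direction in the earlier and in the later library number range. For genes whose pools did not overlap, this follows from the lack of overlap and adds no support. The median difference was 1.55 in the earlier range and 1.83 in the later range for the higher genes, and -0.92 and -1.05 for the lower genes. With each library left out in turn, the called genes numbered from 131 without spleen N1381 to 376 without spleen N1226, and 30 of the higher and 74 of the lower genes were called in all 6 of these fits. In bulk samples fewer cells of a type and less RNA per cell cannot be told apart. The p-values rest on the spread between pools within the 3 groups of the fit, 3 pools each, so that the liver_H pools contribute to it. Limma also draws the spread of each gene toward that of other genes. With only the 6 libraries of spleen and liver_C in the fit, 273 genes were called. Each liver was divided between the cold and the digested preparation, and which libraries share mice is not stated in the sources used here.

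**Figure D1:**
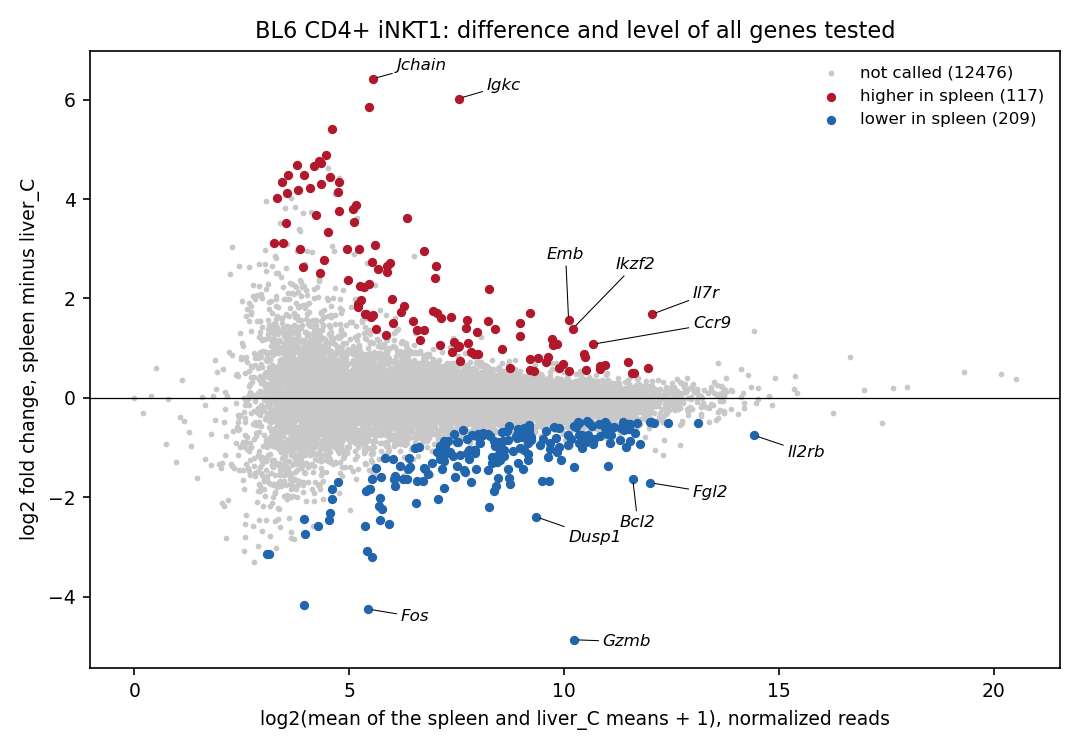
Log2 fold change of spleen minus liver_C (vertical axis) against the log2 mean level in normalized reads (horizontal axis) for the 12802 genes tested. Genes called higher in spleen (red, 117) lay mostly at low levels, and genes called lower (blue, 209) reached higher levels, with Gzmb lowest at -4.87.

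Apart from the markers of other cells, given at the end, the gene lists with the most called members were cytokine receptors (15), immediate early genes (14), genes of cholesterol and fatty acid synthesis (9) and tissue residency genes (7). Cytokine receptors were called in both directions, while homing and NF-kB genes were called only as higher and NK cell receptor, annexin and cytokine feedback genes only as lower in spleen. The share of members called reached 53.6% for the 28 cytokine receptors tested, against 2.55% of all genes. The lists were chosen with earlier results of these data known, so shares of lists are a description only. No member was called among 35 heat shock chaperones, 83 cytosolic ribosomal proteins or 85 nuclear genes of oxidative phosphorylation, of which limma gave an unadjusted p under 0.05 to 3, 0 and 6, and DESeq2 and edgeR called 0 as well. With the library number range as a term in the fit, 2 of the chaperones were lower, and 6 ribosomal protein genes and 6 genes of oxidative phosphorylation were higher in spleen.

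**Figure D2:**
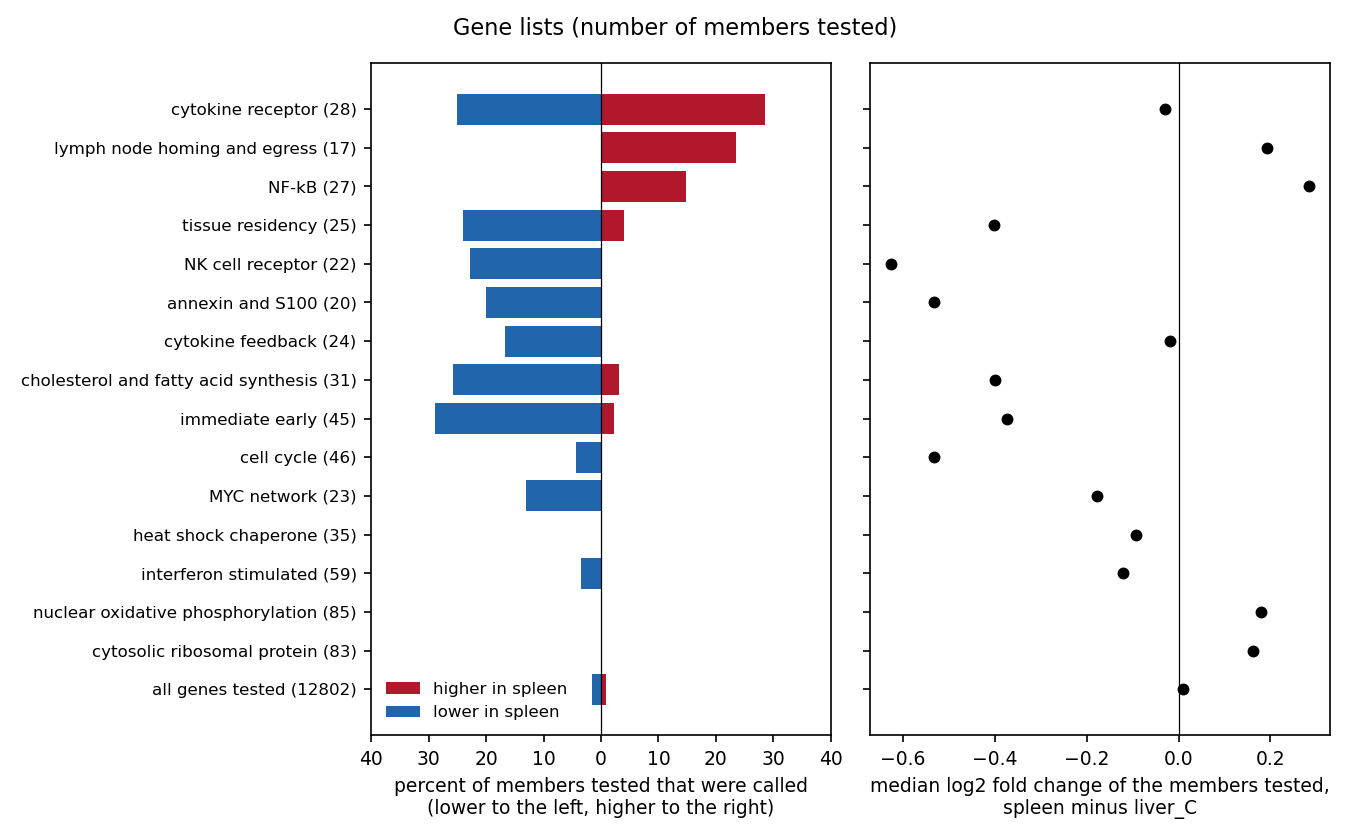
Left, percent of the members tested that were called higher (red, to the right) or lower (blue, to the left) in spleen than in liver_C for 15 gene lists and all genes tested, with the number tested in brackets. Right, the median log2 fold change of the members tested. Cytokine receptors had calls on both sides, and the median of all genes was 0.01.

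Several genes counted with lymph node homing and egress were higher in spleen. Of 17 genes of lymph node homing and egress tested, 4 were higher and 0 lower (23.5% called, against 2.55% of all genes tested). Their median log2 fold change was 0.19, against 0.01 over all genes. S1pr1 (ENSMUSG00000045092.8, chromosome 3, 115710433 to 115715072 of GRCm38), the sphingosine-1-phosphate receptor that guides cells out of tissues, had 377, 517 and 564 normalized reads in the spleen pools and 131, 214 and 217 in the liver_C pools. The groups did not overlap, and the lowest pool of each organ was the one of the earlier library range. Its log2 fold change was 1.39 (SE 0.25, adjusted p = 0.007). Klf2 (ENSMUSG00000055148.7, chromosome 8, 72319033 to 72321656), a transcription factor that drives S1pr1, had 334, 322 and 276 normalized reads in the spleen pools and 179, 154 and 171 in the liver_C pools, at a log2 fold change of 0.88 (SE 0.14, adjusted p = 0.0026). In digested liver, liver_H, Klf2 averaged 2529.6 ± 241 normalized reads (SD, n = 3), so that its spleen level lay above liver_C and below liver_H. Il7r, described with the cytokine receptors, was also among the 4. In the fits without 1 library, 3 to 5 of the 17 genes were higher, the fewest without spleen N1381. Without that library the adjusted p of S1pr1 was 0.053.

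Other surface molecules of migration and adhesion were also higher in spleen. Ccr9 (ENSMUSG00000029530.16, chromosome 9, 123678439 to 123784330), the receptor for the chemokine CCL25, had 2349, 1948 and 2381 normalized reads in the spleen pools and 1066, 1021 and 1058 in the liver_C pools. The 3 liver_C pools were almost level with each other and all below the spleen pools, at a log2 fold change of 1.08 (SE 0.14, adjusted p = 0.00051). It was the only one of 15 chemokine and migration receptors called, which is 6.67%, against 2.55% of all genes tested. Emb (ENSMUSG00000021728.8, chromosome 13, 117208536 to 117274415), which encodes embigin, a partner of monocarboxylate transporters, had 1385, 1685 and 1851 normalized reads in the spleen pools and 421, 631 and 636 in the liver_C pools, a log2 fold change of 1.56 (SE 0.19, adjusted p = 0.00034). Nrp1, the semaphorin co-receptor neuropilin-1, had 148, 264 and 216 normalized reads in the spleen pools and 46.2, 83.8 and 76.7 in the liver_C pools, a log2 fold change of 1.60 (SE 0.27, adjusted p = 0.0045). In liver_H, Nrp1 was higher than in liver_C by 1.28 (SE 0.27, adjusted p = 0.022). St6gal1, a sialyltransferase that modifies surface glycoproteins, had 346, 655 and 341 normalized reads in the spleen pools and 98.5, 178 and 172 in the liver_C pools, a log2 fold change of 1.55 (SE 0.27, adjusted p = 0.0055).

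Several genes known from tissue-resident lymphocytes were lower in spleen. Of 25 residency genes tested, 6 were lower and 1 was higher (28% called, against 2.55% of all genes tested). Their median log2 fold change was -0.40. Itga1 (ENSMUSG00000042284.10, chromosome 13, 114953096 to 115101964) encodes the collagen-binding integrin CD49a and had 569.6, 312 and 274 normalized reads in the spleen pools and 1815, 903 and 970.4 in the liver_C pools. The pools of the earlier library range were the highest in each organ, and the groups did not overlap, at -1.67 (SE 0.34, adjusted p = 0.014). Tox (ENSMUSG00000041272.11, chromosome 4, 6686353 to 6991557), a transcription factor of resident and exhausted T cells, had 176, 199 and 188 normalized reads in the spleen pools and 380.2, 299.9 and 312 in the liver_C pools, a log2 fold change of -0.81 (SE 0.16, adjusted p = 0.011). Zfp683, which encodes the residency factor Hobit, had 1093, 956 and 924 normalized reads in the spleen pools and 1774, 1309 and 1407 in the liver_C pools, and its log2 fold change was -0.59 (SE 0.14, adjusted p = 0.032). Rgs2 (ENSMUSG00000026360.9, chromosome 1, 143999338 to 144004161), an inhibitor of G protein signalling, had 231, 209.7 and 189 normalized reads in the spleen pools and 409, 560.5 and 540.2 in the liver_C pools, a log2 fold change of -1.25 (SE 0.15, adjusted p = 0.00026). Inpp4b at -0.50 and Bhlhe40 at -0.53 were also lower. The member that was higher was Itgae, the integrin chain CD103 that binds E-cadherin in epithelia, with 19.7, 46.9 and 41.3 normalized reads in the spleen pools and 2.2, 4.14 and 6.82 in the liver_C pools, a log2 fold change of 2.78 (SE 0.68, adjusted p = 0.041). With each library left out in turn, between 1 (without spleen N1381) and 7 (without spleen N1226) of the 25 genes were lower. The calls that did not hold, with the adjusted p reached, were Itga1 without N1377 or N1381 (up to 0.09), Tox without N1224 or N1381 (up to 0.052), Zfp683 without N1224, N1377, N1381 or N1383 (up to 0.16), Inpp4b without N1377, N1379, N1381 or N1383 (up to 0.18), Bhlhe40 without N1224, N1377, N1381 or N1383 (up to 0.2) and Itgae without N1224, N1377, N1379, N1381 or N1383 (up to 0.2).

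**Figure D3:**
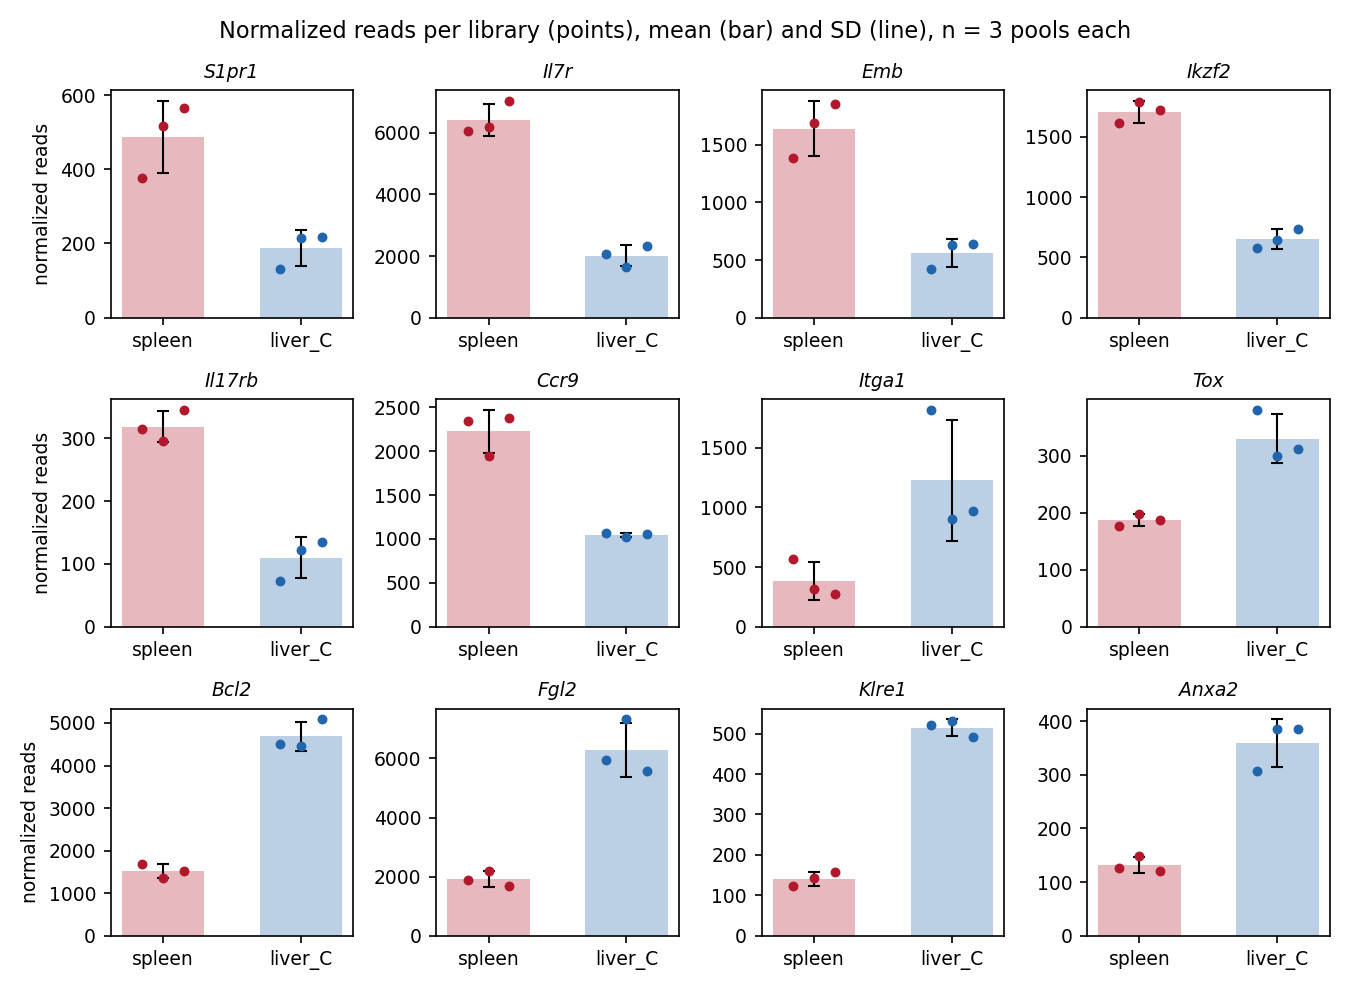
Normalized reads of 12 genes in each library (points), with the mean (bar) and SD (line) of the 3 spleen pools (red, left) and the 3 liver_C pools (blue, right). S1pr1, Il7r, Emb, Ikzf2, Il17rb and Ccr9 were higher in spleen, Itga1, Tox, Bcl2, Fgl2, Klre1 and Anxa2 were lower, and in none of the 12 did the pools overlap.

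The receptors through which cytokines reach the cells differed in both directions. Of 28 cytokine receptor genes tested, 8 were higher and 7 were lower in spleen, and their median was -0.03. Among the higher ones, Il7r (ENSMUSG00000003882.5, chromosome 15, 9505788 to 9530176), the receptor chain for the survival cytokine interleukin-7, had 6046, 6201 and 7021 normalized reads in the spleen pools and 2061, 1653 and 2336 in the liver_C pools. The lowest spleen pool held far more than the highest liver_C pool, at a log2 fold change of 1.68 (SE 0.16, adjusted p = 4.1e-05). Il17rb (ENSMUSG00000015966.17, chromosome 14, 29996135 to 30008896), a receptor chain for interleukin-25, had 314, 296 and 344 normalized reads in the spleen pools and 73.2, 122 and 135 in the liver_C pools. All spleen pools lay above all liver_C pools, at 1.57 (SE 0.27, adjusted p = 0.0055). Il6ra, the receptor chain for interleukin-6, had 46.7, 97.5 and 72.8 normalized reads in the spleen pools and 11.0, 13.4 and 16.2 in the liver_C pools, a log2 fold change of 2.29 (SE 0.37, adjusted p = 0.0037). Both chains of the interleukin-18 receptor were higher, Il18r1 at 1.08 (SE 0.21, adjusted p = 0.0098) and Il18rap at 0.58 (SE 0.14, adjusted p = 0.044). Il18r1 had 1504, 940.1 and 1233 normalized reads in the spleen pools and 637, 400.2 and 721 in the liver_C pools. Il27ra at 0.57, Tgfbr3 at 3.08 and Ifngr2 at 3.67 completed the higher receptors.

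The lower receptors included chains for interleukin-2, interleukin-15, interleukin-12 and interferon-γ. Il2rb (ENSMUSG00000068227.9, chromosome 15, 78479256 to 78495271), the chain through which interleukin-2 and interleukin-15 signal, had 18581, 14743 and 15740.3 normalized reads in the spleen pools and 28888, 26050.3 and 27507 in the liver_C pools. The groups did not overlap, and the log2 fold change was -0.75 (SE 0.15, adjusted p = 0.013). Il12rb2 (ENSMUSG00000018341.12, chromosome 6, 67291318 to 67376188), through which interleukin-12 activates STAT4, had 1146, 841 and 916 normalized reads in the spleen pools and 1905, 1575 and 1844 in the liver_C pools, a log2 fold change of -0.88 (SE 0.14, adjusted p = 0.0036). Ifngr1 (ENSMUSG00000020009.12, chromosome 10, 19591949 to 19610229), the ligand-binding chain of the interferon-γ receptor, had 2484, 2128 and 2575 normalized reads in the spleen pools and 3895, 4759 and 5101 in the liver_C pools, and its log2 fold change was -0.93 (SE 0.15, adjusted p = 0.0036). Its partner chain Ifngr2 went the other way but was scarce, with 32.8, 35.8 and 30.5 normalized reads in the spleen pools and 3.3, 0 and 3.41 in the liver_C pools. Il4ra at -0.73 (SE 0.12, adjusted p = 0.0045), Il10ra at -0.97 (SE 0.18, adjusted p = 0.0098), Il10rb at -0.63 and Il21r at -0.51 were the other lower receptors. Il2rg, the common gamma chain that pairs with Il2rb, Il4ra and Il21r, had a log2 fold change of 0.01 (SE 0.11, adjusted p = 0.98) and was not called. With each library left out in turn, 3 (without spleen N1381) to 7 of the 28 genes were higher and 4 (without spleen N1377, spleen N1381 or liver_C N1383) to 7 were lower. Of the 15 calls, 8 did not hold in every one of these fits. Among the higher receptors these were Il18r1 without N1381 (up to 0.053), Il18rap without N1224, N1226, N1377, N1379, N1381 or N1383 (up to 0.14), Il27ra without N1224, N1226, N1381 or N1383 (up to 0.081), Tgfbr3 without N1377 or N1381 (up to 0.12) and Ifngr2 without N1377 or N1381 (up to 0.083), with the highest adjusted p in brackets. Among the lower receptors they were Il2rb without N1377, N1381 or N1383 (up to 0.095), Il10rb without N1377, N1381 or N1383 (up to 0.12) and Il21r without N1224, N1226, N1377, N1381 or N1383 (up to 0.12).

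**Figure D4:**
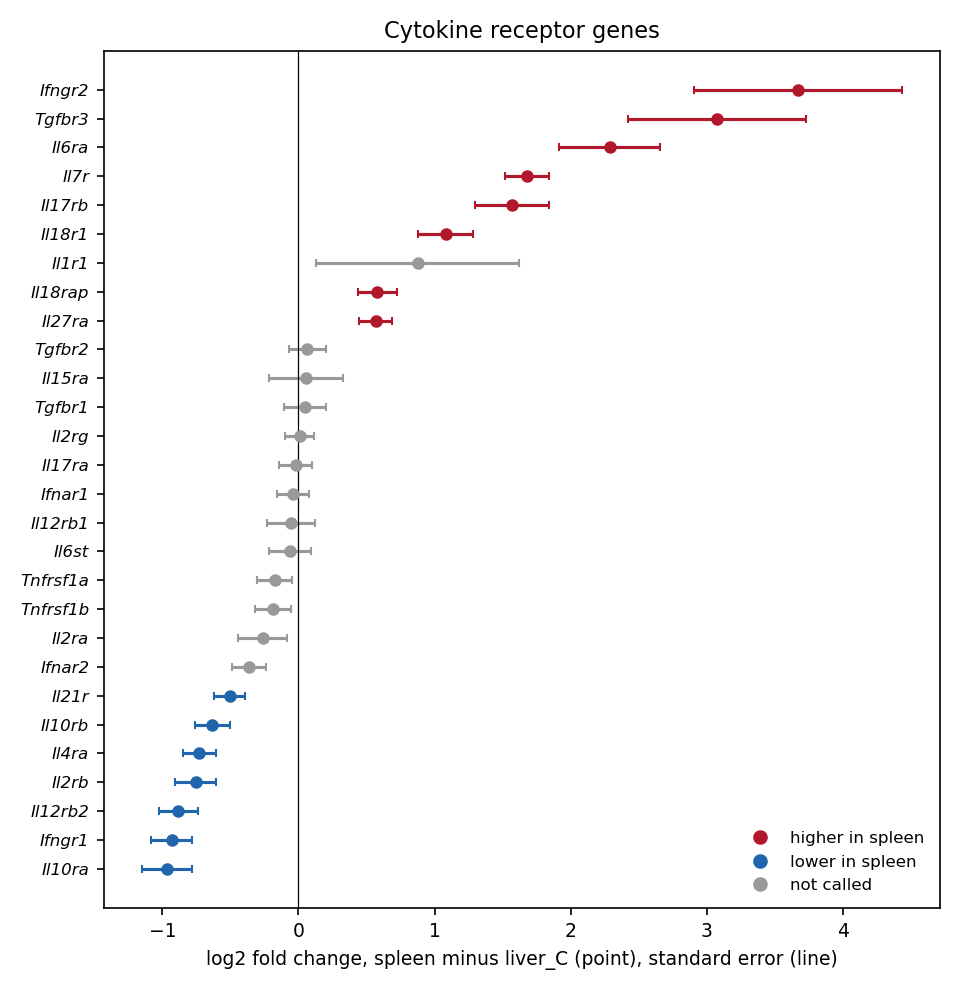
Log2 fold change of spleen minus liver_C (point) with its standard error (line) for the 28 cytokine receptor genes tested, sorted by value. The 8 genes called higher in spleen (red) ran up to Ifngr2 at 3.67, the 7 called lower (blue) down to Il10ra at -0.97, and 13 were not called (grey).

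Genes that act downstream of cytokine receptors were lower in spleen where they were called. Of 24 cytokine feedback genes, 4 were lower and 0 higher (16.7% called, against 2.55% of all genes tested), at a median of -0.02. Socs2 (ENSMUSG00000020027.18, chromosome 10, 95385362 to 95417180), an inhibitor of cytokine signalling, had 345, 219.6 and 298 normalized reads in the spleen pools and 768, 808 and 733 in the liver_C pools. The liver_C pools were within a narrow range and well above the spleen pools, at a log2 fold change of -1.44 (SE 0.16, adjusted p = 0.00011). Pim1 (ENSMUSG00000024014.7, chromosome 17, 29490812 to 29496111), a kinase induced by STAT5, had 1029, 827 and 864 normalized reads in the spleen pools and 1954, 1731 and 1779 in the liver_C pools, a log2 fold change of -1.01 (SE 0.12, adjusted p = 0.00029). Ptpn6, the phosphatase SHP-1, stood at -0.85 (SE 0.13, adjusted p = 0.0017) and Socs1 at -0.71 (SE 0.16, adjusted p = 0.026). Bcl2 (ENSMUSG00000057329.7, chromosome 1, 106538178 to 106714274), which protects lymphocytes from apoptosis, had 1673, 1355 and 1513 normalized reads in the spleen pools and 4515, 4467 and 5086 in the liver_C pools. The groups were far apart, with a log2 fold change of -1.63 (SE 0.13, adjusted p = 5e-06). Bcl2l11, which encodes its antagonist BIM, was lower as well, with 808, 864 and 767 normalized reads in the spleen pools and 1330.4, 1297 and 1457 in the liver_C pools, a log2 fold change of -0.74 (SE 0.11, adjusted p = 0.0021). These were the only calls among 26 genes of the BCL2 family and apoptosis, which is 7.69%, against 2.55% of all genes tested. With a library left out, the call of Socs1 did not always hold: Socs1 without N1377, N1379, N1381 or N1383 (up to 0.15).

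Some receptors shared with natural killer cells were lower in spleen. Of 22 NK cell receptor genes tested, 5 were lower and 0 higher (22.7% called, against 2.55% of all genes tested), with a median of -0.63. Klre1 (ENSMUSG00000050241.8, chromosome 6, 129577905 to 129585827), a lectin-like receptor, had 123, 142 and 157 normalized reads in the spleen pools and 521, 532 and 491 in the liver_C pools. Each group was tight, and the log2 fold change was -1.87 (SE 0.17, adjusted p = 1.7e-05). Klrk1 (ENSMUSG00000030149.15, chromosome 6, 129610323 to 129623864), the activating receptor NKG2D, had 1148, 938 and 1198 normalized reads in the spleen pools and 1957, 1646 and 1981 in the liver_C pools, a log2 fold change of -0.77 (SE 0.13, adjusted p = 0.0052). Klra3 stood at -1.81 (SE 0.33, adjusted p = 0.0086), Klrc2 at -1.10 (SE 0.22, adjusted p = 0.012) and Klrc1, which encodes the inhibitory receptor NKG2A, at -0.59 (SE 0.12, adjusted p = 0.018). Members of the Klra and Klrc families are close copies of each other, and how the counting split their reads is uncertain. In the fits without 1 library, 3 to 5 genes were lower, the fewest without spleen N1377, spleen N1381 or liver_C N1383, and the calls that did not hold were Klrc2 without N1377, N1381 or N1383 (up to 0.067) and Klrc1 without N1377, N1381 or N1383 (up to 0.11).

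Of 20 genes of cytotoxic granules, 2 were lower and 1 higher (15% called, against 2.55% of all genes tested). Of 15 effector cytokines, given further below, 3 were called (20%). Gzmb (ENSMUSG00000015437.5, chromosome 14, 56258838 to 56262260), the protease granzyme B, had 62.3, 96.2 and 80.7 normalized reads in the spleen pools and 1977, 2643 and 2406 in the liver_C pools. This was the most negative log2 fold change of the 12802 genes, at -4.87 (SE 0.17, adjusted p = 1.9e-10). Its paralog Gzmc was lower, with 8.2, 4.93 and 4.92 normalized reads in the spleen pools and 30.8, 31.0 and 52.8 in the liver_C pools, at -2.47 (SE 0.45, adjusted p = 0.0079). Gzma was higher instead, with 63.1, 79.0 and 50.2 normalized reads in the spleen pools and 30.3, 9.31 and 6.82 in the liver_C pools, at 2.23 (SE 0.49, adjusted p = 0.022). Gzma is also a marker of NK cells and ILC1, and the only one called of the 10 such markers tested. The 12 markers of that list summed to 686 to 809 normalized reads in spleen and 746 to 808 in liver_C. The part of such cells in the Gzma reads was not tested. Among 15 effector cytokines, Ifng (ENSMUSG00000055170.4, chromosome 10, 118441046 to 118445892) had 77.0, 64.2 and 108 normalized reads in the spleen pools and 187, 175 and 214 in the liver_C pools, a log2 fold change of -1.22 (SE 0.26, adjusted p = 0.019), and Csf2, the growth factor GM-CSF, stood at -1.38 (SE 0.33, adjusted p = 0.034). Ltb, lymphotoxin beta, was higher with 4677, 4915 and 4704 normalized reads in the spleen pools and 2906, 3257 and 3279 in the liver_C pools. An unnamed gene model that overlaps Ifng, AC153498.1, was lower too, at -2.20 (SE 0.17, adjusted p = 5e-06), and since the strand setting of the counting is not stated, reads of the pair cannot be assigned with certainty. The calls that did not hold without 1 library were Gzmc without N1383 (up to 0.068), Gzma without N1377, N1379, N1381 or N1383 (up to 0.11), Ifng without N1377 or N1383 (up to 0.1) and Csf2 without N1226, N1377, N1379, N1381 or N1383 (up to 0.16).

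A few genes of the NF-kB pathway were higher in spleen. Of 27 genes tested, 4 were higher and 0 lower (14.8% called, against 2.55% of all genes tested), with a median of 0.28. Nfkbia (ENSMUSG00000021025.8, chromosome 12, 55489410 to 55492647), which encodes the inhibitor IκBα and is itself induced by NF-kB, had 1836, 1853 and 1812 normalized reads in the spleen pools and 725, 1103 and 1208 in the liver_C pools. The spleen pools lay within a narrow range above all liver_C pools, at a log2 fold change of 0.89 (SE 0.16, adjusted p = 0.007). Relb (ENSMUSG00000002983.17, chromosome 7, 19606217 to 19629438), the partner of p52 in the non-canonical pathway, had 815, 695 and 730.1 normalized reads in the spleen pools and 459, 379.5 and 469 in the liver_C pools, a log2 fold change of 0.78 (SE 0.15, adjusted p = 0.0098). Nfkb2 (ENSMUSG00000025225.14, chromosome 19, 46304737 to 46312090), which encodes the precursor of p52, had 1109.6, 908 and 832 normalized reads in the spleen pools and 541, 524 and 658 in the liver_C pools, and its log2 fold change was 0.72 (SE 0.15, adjusted p = 0.016). The last was Ltb (ENSMUSG00000024399.5, chromosome 17, 35194439 to 35196320), a ligand that triggers this pathway in neighbouring cells, at 0.60 (SE 0.12, adjusted p = 0.011). Leaving out 1 library at a time gave 2 (without spleen N1377) to 4 higher genes, and the calls that did not hold were Nfkb2 without N1226 or N1377 (up to 0.056) and Ltb without N1377 or N1381 (up to 0.062).

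Promoter sequences of these genes are shown because they moved together. RefSeq promoter windows of GRCm38.p6, from 250 bases before to 50 bases after the start of the gene, were at hand for 3 of these 4 genes. A word of the NF-kB binding motif, read on either strand as GGG, any pair of bases and TTTCC, occurred in each of these 3 windows, in 6 of the 20 windows of all NF-kB genes tested (30%), in 8 of the 73 windows of genes higher in spleen (11.0%), in 3 of the 158 windows of genes lower in spleen (1.90%) and in 1.65% of the 8792 windows of all genes tested. A match describes the letters and does not show binding. The windows read 5′ to 3′ on the strand of the gene, with the matches in capitals.
Nfkbia, chr12:55492598-55492897, minus strand: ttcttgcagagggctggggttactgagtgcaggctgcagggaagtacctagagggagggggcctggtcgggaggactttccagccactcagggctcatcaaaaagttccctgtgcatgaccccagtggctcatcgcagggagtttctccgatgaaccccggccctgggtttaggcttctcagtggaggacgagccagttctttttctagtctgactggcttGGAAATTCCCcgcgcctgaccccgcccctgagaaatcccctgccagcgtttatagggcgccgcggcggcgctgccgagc
Nfkb2, chr19:46304487-46304786, plus strand: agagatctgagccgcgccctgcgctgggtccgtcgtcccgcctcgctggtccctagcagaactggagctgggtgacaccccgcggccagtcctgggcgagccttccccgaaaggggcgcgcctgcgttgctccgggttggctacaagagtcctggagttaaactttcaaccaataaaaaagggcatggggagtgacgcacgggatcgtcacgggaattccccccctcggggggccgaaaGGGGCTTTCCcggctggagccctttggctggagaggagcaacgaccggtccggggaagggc
Ltb, chr17:35194257-35194556, plus strand: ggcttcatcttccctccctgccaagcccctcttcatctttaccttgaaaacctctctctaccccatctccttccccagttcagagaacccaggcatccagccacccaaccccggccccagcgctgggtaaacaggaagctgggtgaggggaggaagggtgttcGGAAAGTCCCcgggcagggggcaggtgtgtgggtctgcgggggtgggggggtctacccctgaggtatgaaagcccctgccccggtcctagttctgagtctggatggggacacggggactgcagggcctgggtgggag

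Immediate early genes, which are transcribed within minutes of a stimulus, were in part lower in spleen, and neither organ had been digested. Of 45 genes tested, 13 were lower and 1, Klf2, was higher (31.1% called, against 2.55% of all genes tested). Their median was -0.37. Dusp1 (ENSMUSG00000024190.6, chromosome 17, 26505590 to 26508519), a phosphatase that switches off MAP kinases, had 176, 204 and 242 normalized reads in the spleen pools and 918, 1128 and 1233 in the liver_C pools. No spleen pool came near any liver_C pool, and the log2 fold change was -2.39 (SE 0.16, adjusted p = 1.2e-06). Fos, a subunit of the transcription factor AP-1, had 4.1, 0 and 12.8 normalized reads in the spleen pools and 68.8, 67.2 and 101 in the liver_C pools, a log2 fold change of -4.25 (SE 0.63, adjusted p = 0.0017) that depends on the pseudocount because 1 spleen pool had no read. Jun, its partner, had 285, 211 and 348 normalized reads in the spleen pools and 836, 659.7 and 575 in the liver_C pools, a log2 fold change of -1.30 (SE 0.18, adjusted p = 0.001). Fosl2 at -1.18 (SE 0.17, adjusted p = 0.0016), Junb at -0.92 (SE 0.16, adjusted p = 0.0045) and Klf6 at -0.77 (SE 0.13, adjusted p = 0.0038) were also lower, as was Myc (ENSMUSG00000022346.15, chromosome 15, 61985391 to 61990374), the growth regulator, with 394, 312 and 335 normalized reads in the spleen pools and 747, 680.4 and 726 in the liver_C pools, at -1.05 (SE 0.17, adjusted p = 0.003). Fosb at -1.49 (SE 0.42, adjusted p = 0.084) and Nr4a1 at 0.73 (SE 0.35, adjusted p = 0.39) did not pass the test. Some of these genes were higher still in liver_H. Dusp1 had 4023 ± 709.9 normalized reads in liver_H (SD, n = 3), against its liver_C values above, a log2 fold change of 1.88 (SE 0.16, adjusted p = 5.4e-06), and Jun had 11651 ± 1556, at 4.08 (SE 0.18, adjusted p = 2.7e-09). Myc had 683 ± 177 in liver_H, and its difference from liver_C, -0.10 (SE 0.17, adjusted p = 0.82), was not called. The Percoll step at 20 °C, which liver_C cells passed, and the organ cannot be told apart here. With each library left out in turn, 9 (without spleen N1377) to 14 (without liver_C N1379) of the 45 genes were lower.

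The promoter windows of Dusp1 and of Ppp1r15a, a subunit of the phosphatase that ends the integrated stress response, are shown because they hold a full cyclic AMP response element. Ppp1r15a had 261, 163 and 252 normalized reads in the spleen pools and 659, 508 and 648 in the liver_C pools, a log2 fold change of -1.44 (SE 0.21, adjusted p = 0.0015). Of the 13 lower immediate early genes, 11 had a window, and the core TGACGT, on either strand and contained in the full element TGACGTCA, was found in 4 of them (36.4%), against 10 of the 35 windows of all immediate early genes tested (28.6%), 12.7% of the 158 windows of all genes lower in spleen and 12.7% of those of all genes tested. The full element was found in 2 of the 11 (18.2%), in 4 of the 35 (11.4%) and in 3.30% of the windows of all genes tested. The AP-1 word TGANTCA was in 0 of the 11, in 18 of the 158 windows of lower genes (11.4%) and in 4.42% of all tested. Gzmb, Klrk1, Fgl2 and Anxa2 were among the 18. Matches of the core are in capitals.
Dusp1, chr17:26508423-26508722, minus strand: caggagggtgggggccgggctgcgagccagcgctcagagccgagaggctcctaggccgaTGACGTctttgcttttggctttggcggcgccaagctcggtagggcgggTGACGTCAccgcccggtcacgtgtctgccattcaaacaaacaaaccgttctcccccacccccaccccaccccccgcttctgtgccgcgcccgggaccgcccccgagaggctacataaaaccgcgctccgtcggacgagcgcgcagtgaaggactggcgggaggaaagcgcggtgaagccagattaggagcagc
Ppp1r15a, chr7:45526219-45526518, minus strand: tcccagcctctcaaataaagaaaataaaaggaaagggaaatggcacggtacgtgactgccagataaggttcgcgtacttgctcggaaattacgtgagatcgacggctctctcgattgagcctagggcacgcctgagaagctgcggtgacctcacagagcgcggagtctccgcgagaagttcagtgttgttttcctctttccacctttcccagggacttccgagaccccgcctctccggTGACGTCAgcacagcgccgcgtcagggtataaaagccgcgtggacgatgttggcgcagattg

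Several genes of cholesterol and fatty acid synthesis were lower in spleen. Of 31 genes tested, 8 were lower and 1 higher (29% called, against 2.55% of all genes tested), with a median of -0.40. Cyp51 (ENSMUSG00000001467.5, chromosome 5, 4081145 to 4104746), an enzyme of the cholesterol pathway, had 147, 148 and 161 normalized reads in the spleen pools and 288, 322 and 388 in the liver_C pools. The spleen pools were close together and all below the liver_C pools, at a log2 fold change of -1.11 (SE 0.21, adjusted p = 0.009). Stard4, a carrier of cholesterol between membranes, had 366, 323 and 355 normalized reads in the spleen pools and 524, 610.1 and 694 in the liver_C pools, and its log2 fold change was -0.80 (SE 0.15, adjusted p = 0.0076). Srebf2, the transcription factor that controls this pathway, stood at -0.90 (SE 0.18, adjusted p = 0.012), Sqle at -2.18 (SE 0.43, adjusted p = 0.013) and the fatty acid synthase Fasn at -0.75 (SE 0.16, adjusted p = 0.023). Fads1, a fatty acid desaturase, was lower at -0.88. The higher gene was Scd1, another desaturase, with 70.5, 62.9 and 55.1 normalized reads in the spleen pools and 2.75, 6.2 and 5.11 in the liver_C pools, at 3.53 (SE 0.66, adjusted p = 0.0088). Abca1 (ENSMUSG00000015243.4, chromosome 4, 53030787 to 53159895), which exports cholesterol from cells, was higher as well, with 1324, 1086 and 1103 normalized reads in the spleen pools and 571, 472 and 509 in the liver_C pools, a log2 fold change of 1.18 (SE 0.16, adjusted p = 0.00086). Fabp5, a fatty acid carrier, was lower, with 13.9, 19.7 and 27.6 normalized reads in the spleen pools and 73.7, 93.1 and 81.8 in the liver_C pools, at -2.01 (SE 0.29, adjusted p = 0.0015). These lower calls were sensitive to single libraries. With each left out in turn, 1 (without liver_C N1383) to 6 of the 31 genes were lower, and the calls that did not hold among the genes named were Cyp51 without N1383 (up to 0.068), Stard4 without N1383 (up to 0.062), Srebf2 without N1377, N1381 or N1383 (up to 0.076), Sqle without N1377 or N1383 (up to 0.06), Fasn without N1224, N1377, N1381 or N1383 (up to 0.14), Fads1 without N1224, N1226, N1379, N1381 or N1383 (up to 0.21) and Scd1 without N1377 or N1381 (up to 0.051).

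Transcription factors of T cell lineages were mixed. Of 35 tested, 3 were higher and 2, Tox and Zfp683, were lower (14.3% called, against 2.55% of all genes tested). Ikzf2 (ENSMUSG00000025997.13, chromosome 1, 69531214 to 69687245), which encodes Helios, had 1611, 1785 and 1719 normalized reads in the spleen pools and 574, 646 and 734 in the liver_C pools. The 3 pools of each organ were close together and far from those of the other, at a log2 fold change of 1.39 (SE 0.15, adjusted p = 0.00012). Rora, an orphan nuclear receptor, stood at 0.50 (SE 0.13, adjusted p = 0.047). Tmem176b (ENSMUSG00000029810.15, chromosome 6, 48833818 to 48841496), a membrane protein, was lower, with 188, 138 and 195 normalized reads in the spleen pools and 455, 569.8 and 555 in the liver_C pools, a log2 fold change of -1.60 (SE 0.19, adjusted p = 0.00029), as was its neighbour Tmem176a at -1.38 (SE 0.28, adjusted p = 0.016). Of 13 genes of iNKT2 and iNKT17 cells tested, 2 were higher, Il17rb among them, and 2 were lower, Tmem176a and Tmem176b (30.8% called). The calls that did not hold without 1 library were Rora without N1226, N1377, N1379, N1381 or N1383 (up to 0.23) and Tmem176a without N1377, N1381 or N1383 (up to 0.084).

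Annexin, cell cycle and MYC genes were lower in spleen where called. Of 20 annexin and S100 genes, 4 were lower and 0 higher (20% called, against 2.55% of all genes tested), with a median of -0.53. Anxa2 (ENSMUSG00000032231.14, chromosome 9, 69453620 to 69491795), a calcium-dependent membrane-binding protein, had 127, 148 and 120.0 normalized reads in the spleen pools and 308, 385 and 385 in the liver_C pools, a log2 fold change of -1.44 (SE 0.17, adjusted p = 0.00034). Anxa5 stood at -1.43 (SE 0.24, adjusted p = 0.0048), Anxa1 at -1.01 (SE 0.24, adjusted p = 0.034) and Crip1 at -0.89 (SE 0.21, adjusted p = 0.034). Of 46 cell cycle genes, 1 had a log2 fold change above 0, as did 51.1% of all genes tested, and the median was -0.53. Of the 46, 2 were called, both lower, which is 4.35%, against 2.55% of all genes tested. Mki67, the proliferation marker Ki-67, had 53.3, 91.3 and 62.0 normalized reads in the spleen pools and 202, 119 and 199 in the liver_C pools, at -1.32 (SE 0.25, adjusted p = 0.01), and the mitotic kinesin Kif15 had 36.9, 19.7 and 33.5 normalized reads in the spleen pools and 109, 109.6 and 88.6 in the liver_C pools, at -1.78 (SE 0.30, adjusted p = 0.0045). This count depended on the fit, with 15 lower genes with the library number range as a term, 0 with all 20 libraries in the fit and 0 of the 16 genes that had over 300 normalized reads. Leaving out 1 library gave 1 to 5 lower genes, the most without spleen N1377, where the median was -0.85. In the MYC network, beside Myc itself, Mxd1 was lower at -1.01 (SE 0.15, adjusted p = 0.0016) and Cad, an enzyme of pyrimidine synthesis, at -0.76 (SE 0.17, adjusted p = 0.025). Calls that did not hold without 1 library were Anxa1 without N1377, N1379 or N1383 (up to 0.13), Crip1 without N1226, N1377, N1379 or N1383 (up to 0.14), Mki67 without N1381 or N1383 (up to 0.07) and Cad without N1224, N1377, N1381 or N1383 (up to 0.14).

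Further genes with large differences belonged to none of these groups. Fgl2 (ENSMUSG00000039899.5, chromosome 5, 21372642 to 21378374), a secreted fibrinogen-like protein, had 1896, 2189.9 and 1673 normalized reads in the spleen pools and 5941, 7326 and 5583 in the liver_C pools, a log2 fold change of -1.71 (SE 0.14, adjusted p = 5e-06). Gem (ENSMUSG00000028214.13, chromosome 4, 11704457 to 11714752), a small GTPase, had 190.1, 228 and 171 normalized reads in the spleen pools and 553, 736 and 669 in the liver_C pools, at -1.73 (SE 0.15, adjusted p = 1.7e-05). Entpd1 (ENSMUSG00000048120.16, chromosome 19, 40612366 to 40741602), the ectonucleotidase CD39 that degrades extracellular ATP, had 756, 465 and 542 normalized reads in the spleen pools and 1346, 1131 and 1209 in the liver_C pools, at -1.09 (SE 0.16, adjusted p = 0.0017). Each of these lower genes kept its call with any of the 6 libraries left out. On the higher side, Trib2 (ENSMUSG00000020601.8, chromosome 12, 15791727 to 15816922), a pseudokinase, had 694, 1086 and 961 normalized reads in the spleen pools and 325, 245 and 256 in the liver_C pools, a log2 fold change of 1.71 (SE 0.18, adjusted p = 0.00011). Atp6v0d2, a subunit of the vacuolar proton pump, had 200.0, 159 and 275 normalized reads in the spleen pools and 35.8, 22.7 and 66.5 in the liver_C pools, at 2.41 (SE 0.34, adjusted p = 0.0015), and Nebl, a protein of the actin cytoskeleton, 203, 259 and 289 normalized reads in the spleen pools and 69.3, 92.0 and 79.2 in the liver_C pools, at 1.63 (SE 0.22, adjusted p = 0.001). Pak6 at -1.70 (SE 0.30, adjusted p = 0.0062), Itih5 at -1.68 (SE 0.32, adjusted p = 0.01), Ccdc136 at -2.04 (SE 0.38, adjusted p = 0.0088) and the unnamed transcript Gm33104 at -1.67 (SE 0.26, adjusted p = 0.0027) were lower. In Pak6, Itih5 and Ccdc136 the pool of the earlier library range was the highest in each organ. Itih5 had 588, 225 and 269 normalized reads in the spleen pools and 1447, 814 and 991 in the liver_C pools. Calls that did not hold without 1 library were Itih5 without N1377 or N1381 (up to 0.067) and Ccdc136 without N1381 (up to 0.051).

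The remaining blood and thymus libraries place these levels beside other organs of the same strain, without a test. Bcl2 averaged 4513 ± 262 normalized reads in blood and 2487 ± 274 in thymus (SD, n = 3 each), so that blood was level with liver_C. Fgl2 averaged 4944 ± 364 in blood and 7275 ± 1289.8 in thymus, and Gzmb 2004 ± 371 and 3786 ± 366, both nearer to liver_C than to spleen. Of the residency genes, Itga1 averaged 999.6 ± 187 in blood and 1283 ± 168 in thymus. Il7r, counted with the homing genes, averaged 2100 ± 362 in blood and 7479 ± 1057 in thymus. Blood cells were thus nearer to liver_C than to spleen for both genes. Blood values of the other homing and residency genes are not given here. Socs2 averaged 798 ± 16.3 in blood but only 106 ± 32.3 in thymus. Ikzf2, which was higher in spleen, averaged 614 ± 39.4 in blood and 1087 ± 78.9 in thymus, and Emb 696 ± 81.3 and 329.6 ± 82.2. Not all genes were nearer to liver_C in blood. Dusp1 averaged 138 ± 29.0 in blood and 367 ± 68.2 in thymus, and AC153498.1, which overlaps Ifng, 79.5 ± 21.1 and 93.7 ± 43.1. In blood and thymus both were nearer to spleen than to liver_C. The sorting gate of the blood cells is not given in the sources used here, and thymus cells were sorted by another gate.

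Markers of other cells moved with the genes higher in spleen. Of 21 B cell and plasma cell markers tested, spleen was higher in 13 and lower in 0, with a median log2 fold change of 3.80. Many of these markers were at or near 0 in liver_C and entered the test through other libraries. Their direction, count and median are therefore in part set by the filter. The sums below take all markers of a list, tested or not. Ighm was at an even level in all 6 libraries, with 1721 ± 161 normalized reads in spleen and 1686 ± 79.4 in liver_C (SD, n = 3 each). The other 27 markers summed to 3122, 1787 and 1519 normalized reads in the spleen pools and 268, 254 and 151 in the liver_C pools. Igkc, the kappa light chain, stood at 6.02 (SE 0.59, adjusted p = 4.5e-05). Of antigen presentation genes, Cd74 had 797, 331 and 374 normalized reads in the spleen pools and 126, 107 and 75.8 in the liver_C pools, at 2.19 (SE 0.42, adjusted p = 0.0098), and H2-Ab1 264, 238 and 155 normalized reads in the spleen pools and 27.5, 64.1 and 20.4 in the liver_C pools, at 2.65 (SE 0.56, adjusted p = 0.018). Of the 28 markers, 0 to 2 were at 0 in a spleen pool and 6 to 17 in a liver_C pool. Of 11 tested markers of macrophages and dendritic cells, 3 were higher, and the 25 markers summed to 1691 to 2040 in spleen and 763 to 1028 in liver_C. Ctss (ENSMUSG00000038642.10, chromosome 3, 95526786 to 95556403), the protease cathepsin S, had 656, 786 and 789 normalized reads in the spleen pools and 226, 295 and 264 in the liver_C pools, at 1.51 (SE 0.15, adjusted p = 6.8e-05), and Lyz2, lysozyme, 227, 211 and 164 normalized reads in the spleen pools and 64.4, 76.5 and 45.2 in the liver_C pools, at 1.70 (SE 0.38, adjusted p = 0.025). Of 7 tested markers of neutrophils and monocytes, 2 granule genes at 0 in every liver_C pool were higher, Ngp and Ltf. No liver_C pool brought them into the test, so their direction was set by the filter. Mmp9, a matrix protease, was lower with 1850.5, 827 and 881 normalized reads in the spleen pools and 3886, 2588 and 2370.2 in the liver_C pools, at -1.38 (SE 0.27, adjusted p = 0.013). Markers of these and other cells made up 22 of the 117 higher genes and 1 of the 209 lower genes. Among them were also Cd8b1 of CD8 T cells, with 52.4, 58.0 and 60.0 normalized reads in the spleen pools and 14.9, 20.7 and 10.2 in the liver_C pools, at 1.88 (SE 0.45, adjusted p = 0.04), and Ikzf2, which regulatory T cells express too. Foxp3, the defining gene of regulatory T cells, was at 0 or close to 0 in each of the 6 libraries. The part of these cells in the higher genes with few reads was not tested.

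**Figure D5:**
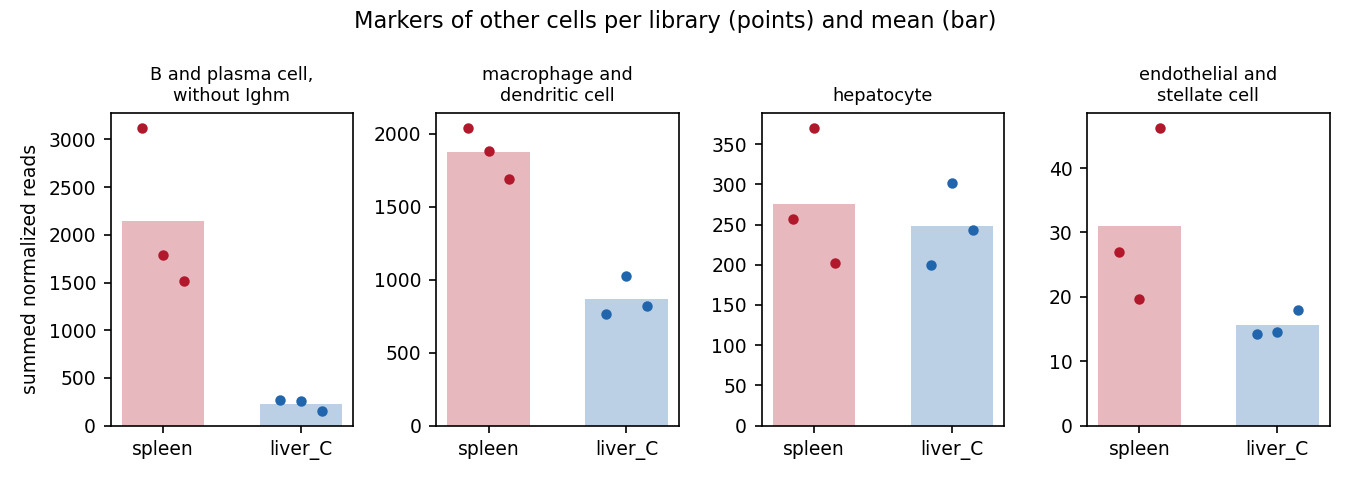
Summed normalized reads of marker genes of other cells in each library (points) with the mean (bar) for spleen (red, left) and liver_C (blue, right). B and plasma cell markers without Ighm reached 1519 to 3122 in spleen, against 151 to 268 in liver_C, and the sums of hepatocyte markers overlapped, with most of their reads on Ass1 and Apoe.

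The 26 hepatocyte markers overlapped between the organs in their sum, but not without the pair that held most of the reads. Their sum was 202 to 370 normalized reads in spleen and 200 to 302 in liver_C. Without Ass1 and Apoe, which other cells express too and which were set aside after their values were seen, the other 24 summed to 19.7, 6.17 and 24.6 in the spleen pools and 25.3, 33.1 and 62.2 in the liver_C pools. Alb, albumin, had 0.82, 0 and 0 normalized reads in the spleen pools and 6.6, 3.1 and 27.3 in the liver_C pools, which did not overlap but was not called at -2.97 (SE 0.93, adjusted p = 0.13), while DESeq2 called it lower in spleen at an adjusted p of 0.012. The 17 markers of endothelial and stellate cells summed to 19.7 to 46.2 in spleen and 14.3 to 17.9 in liver_C. The share of reads on mitochondrial messenger RNA was 0.791 to 0.857% in spleen and 0.672 to 0.741% in liver_C and did not overlap, while none of the 7 genes was called and their median log2 fold change was 0.39. With the library number range as a term in the fit, 5 of the 7 were called higher in spleen. The calls that did not hold without 1 library were H2-Ab1 without N1377 or N1383 (up to 0.097), Cd74 without N1383 (up to 0.059), Lyz2 without N1226, N1377, N1381 or N1383 (up to 0.14), Cd8b1 without N1224, N1226, N1377, N1381 or N1383 (up to 0.17), Ngp without N1381 (up to 0.12), Ltf without N1224, N1226, N1377, N1381 or N1383 (up to 0.2) and Mmp9 without N1377 or N1381 (up to 0.084).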

How the data were processed

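RNA of sorted CD4+ iNKT1 cells was sequenced as single reads of 75 bases from libraries made with a stranded low-input kit. The authors removed adaptors with Trim Galore 0.4.4, mapped reads to the GRCm38.p6 genome by STAR, obtained gene counts from featureCounts and scaled these by DESeq2. The strand setting of the counting is not given in the sources used here. The deposited table gives 53714 genes. Its value per library is a signal deposited by the authors, reads of a gene over the size factor for that library. The authors' base mean is a signal in the same unit. The deposited log2 fold change (thymus over the other libraries), its standard error, a score (the test statistic), and the p-value and adjusted p-value that the authors obtained with DESeq2 were not used, and the deposited gene length was not used. One line of the table, which names no gene, was left out. Division by the smallest step of a library gave whole reads, within 0.05, for at least 99.99% of the values, and with them the depth. Reads carry no molecular identifiers, and the errors given are SD over pools.

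Groups follow the labelled organ, preparation and strain. The values were transformed to log2(value + 1), and genes that reached 10 normalized reads in 3 or more libraries entered limma 3.58.1 with trend (R 4.3.3) in a fit of the 9 BL6 libraries from spleen or liver (liver_C and liver_H), with Benjamini-Hochberg adjustment of p over all genes and a threshold of 0.05. The fit was tested on simulated data. SE is the standard error of the log2 fold change. Alternatives were TMM scaling, quantile normalization, other filters and pseudocounts, only the 6 or all 20 libraries, the library number range as a term, a replicate block by neighbouring library numbers, edgeR 4.0.16 and DESeq2 1.42.0 on the whole reads, and leaving out each of the 6 libraries. Genes were named if they were among the 14 highest or lowest log2 fold changes of called genes with at least 100 normalized reads and no overlap, the 6 smallest adjusted p in each direction, up to 4 called members of a list, or the most abundant markers. Other members of a list were named after their values were seen, to account for a count. The members and lists were chosen with earlier results of these data known. Promoter windows came from RefSeq and were matched by symbol for 8792 of the tested genes. A few called genes counted in these lists are not reported here by name.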

Additional observations from a re-analysis of the deposited data

How the results depend on the processing

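The 326 called genes (117 higher and 209 lower in spleen) numbered 251 to 373 under TMM scaling, quantile normalization, no filter, pseudocounts of 0.5 and 10, edgeR and a fit of only the 6 libraries. They numbered 167 (38 and 129) with only genes over 300 normalized reads, 174 (59 and 115) with all 20 libraries in the fit and 572 (229 and 343) with DESeq2. With the library number range as a term, 1170 genes (419 and 751) were called. With each library left out in turn, 131 to 376 genes were called, 41 to 103 higher and 90 to 286 lower. The 19 genes past a 3-fold change, an unadjusted p of at most 0.05 and 300 normalized reads numbered 16 to 21 under the alternatives and 13 to 24 with a library left out. None of the 326 called genes changed direction under any alternative run. All alternatives drew on these same libraries, so this is no independent support. Of the 97 named genes that were called, 63 stayed called with all 20 libraries, 62 of the 67 that could be tested did so over 300 normalized reads, and 61 did so without spleen N1377 or without spleen N1381.

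The replicate block by neighbouring library numbers gave 1333 genes (485 and 848). The deviations of the paired libraries correlated at 0.23, 0.10 and 0.06, and spleen N1381 correlated better with liver_C N1379 (0.09) than with its neighbour, so that the numbers do not show a pairing. With this block, 2 chaperones were lower, 7 ribosomal protein genes, 7 genes of oxidative phosphorylation and 5 of the 7 mitochondrial messenger RNAs were higher, and 20 of the 46 cell cycle genes and 11 of the 37 genes of T cell receptor signalling were lower in spleen, against 2 cell cycle genes, 1 gene of T cell receptor signalling and 0 of the other lists without it. The cause of these differences was not tested.

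With 3 pools in each group, genes with few reads had wide errors, and a p that misses the threshold does not show that values did not differ. The median log2 fold change of all genes was -0.02 under TMM scaling and 0.01 under quantile normalization, against 0.01 in the fit reported.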

Other observations

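Several further gene groups held up to 3 calls in a direction. Over all genes tested, 2.55% were called. The share was 3.39% for interferon-stimulated genes and 2.70% for T cell receptor signalling. It was 3.57% for costimulatory and inhibitory receptors and 4.35% for oxidative stress and metals. For PI3K, FOXO and insulin receptor substrate signalling it was 7.69%, for TGF-beta signalling 8% and for glycolysis and hypoxia 8.57%. For MHC class I and antigen processing it was 9.09%, for P2X7 and NAD handling 11.8% and for glucocorticoid targets 19%. Counts near the share of all genes are no result about these lists. Of 26 genes of PI3K, FOXO and insulin receptor substrate signalling, Irs2, an adaptor of the insulin receptor, was lower in spleen with 215, 209.7 and 162 normalized reads in the spleen pools and 413, 387 and 544 in the liver_C pools, a log2 fold change of -1.19 (SE 0.19, adjusted p = 0.0027), and Klf2 was the 1 higher gene. Of 21 glucocorticoid targets, Il7r and Nfkbia were higher and Dusp1 and Rgs2 lower. Of 35 genes of glycolysis and hypoxia, 3 were lower, among them the aldolase Aldoc with 4.1, 3.7 and 5.9 normalized reads in the spleen pools and 33.0, 31.0 and 31.5 in the liver_C pools, a log2 fold change of -2.58 (SE 0.45, adjusted p = 0.0057). Of 59 interferon-stimulated genes, 2 were lower, Usp18 at -0.77 (SE 0.18, adjusted p = 0.036) and Oas3 at -0.54 (SE 0.13, adjusted p = 0.043). Of 22 genes of MHC class I and antigen processing, Cd1d1, which presents lipids to iNKT cells, was higher with 126, 129.5 and 152 normalized reads in the spleen pools and 69.9, 43.4 and 71.6 in the liver_C pools, at 1.16 (SE 0.26, adjusted p = 0.025), and Nlrc5, an activator of MHC class I genes, was lower at -0.68 (SE 0.17, adjusted p = 0.048). Summed markers of B cells and of macrophages and dendritic cells were also higher in the spleen pools. The part of such cells in the Cd1d1 reads was not tested.

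The T cell receptor genes gave no call. Of 15 Trbv and 6 Trav genes tested, none passed limma, whose unadjusted p was under 0.05 for 0 and 1 of them, while 0 passed edgeR or DESeq2. The long non-coding RNA Neat1 was lower in spleen, with 353, 439 and 342 normalized reads in the spleen pools and 721, 676 and 568 in the liver_C pools, a log2 fold change of -0.79 (SE 0.16, adjusted p = 0.015), and liver_H was above liver_C by 1.05 (SE 0.16, adjusted p = 0.0022). Nfatc2, a transcription factor activated through the T cell receptor, was lower with 1875, 1473 and 1503 normalized reads in the spleen pools and 3115, 2258 and 2825 in the liver_C pools, at -0.75 (SE 0.15, adjusted p = 0.014), the only call among 37 genes of T cell receptor signalling. Not all of these calls held without 1 library: Usp18 without N1224, N1226, N1379 or N1381 (up to 0.16), Oas3 without N1224, N1226, N1377, N1379, N1381 or N1383 (up to 0.17), Cd1d1 without N1377, N1379, N1381 or N1383 (up to 0.14), Nlrc5 without N1224, N1377, N1381 or N1383 (up to 0.24), Neat1 without N1381 (up to 0.09) and Nfatc2 without N1377, N1381 or N1383 (up to 0.083).

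Single members of other lists were also called. Tnfrsf25, the death receptor DR3, was higher with 481, 476 and 583 normalized reads in the spleen pools and 333, 333 and 343 in the liver_C pools, at 0.60 (SE 0.15, adjusted p = 0.047), and was the only call among 28 costimulatory and inhibitory receptors. Of 17 genes of P2X7 and NAD handling, the ADP-ribosyltransferase pseudogene Art2a-ps was higher, with 315, 266 and 294 normalized reads in the spleen pools and 182, 105 and 127 in the liver_C pools, at 1.11 (SE 0.24, adjusted p = 0.024), and Entpd1 was lower. Art2a-ps has a close copy, Art2b, and how the counting split their reads is uncertain. Of 25 genes of TGF-beta signalling, Tgfbr3 was higher and Pmepa1, an inhibitor of this pathway, was lower with 26.2, 24.7 and 25.6 normalized reads in the spleen pools and 80.9, 49.6 and 82.6 in the liver_C pools, at -1.41 (SE 0.33, adjusted p = 0.034). Slc40a1, the iron exporter ferroportin, was the only call among 23 genes of oxidative stress and metals, with 87.7, 66.6 and 38.4 normalized reads in the spleen pools and 6.05, 9.31 and 0 in the liver_C pools, at 3.89 (SE 0.95, adjusted p = 0.043). It was also 1 of the 3 called markers of macrophages and dendritic cells. The part of such cells in its reads was not tested. The calls that did not hold without 1 library were Tnfrsf25 without N1224, N1226, N1377, N1379, N1381 or N1383 (up to 0.25), Art2a-ps without N1226, N1377, N1379, N1381 or N1383 (up to 0.11), Pmepa1 without N1224, N1226, N1377, N1381 or N1383 (up to 0.17) and Slc40a1 without N1224, N1226, N1377, N1381 or N1383 (up to 0.17).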
